A study of Rattus norvegicus with 12 samples.

Results

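The genes described here fold, modify and export proteins in the endoplasmic reticulum (ER), the compartment where secreted and membrane proteins are made. They form a list of 39 named genes: 11 chaperones and their co-factors, 4 protein disulfide isomerases, 6 sensors and transcription factors, 3 genes of ER-associated degradation, 7 of protein translocation into the ER, 4 of the signal peptidase, 3 of the oligosaccharyltransferase and 1 retrieval receptor. On these arrays 29 of the 39 had a probe that could be assigned to the gene and that the authors called detected on both arrays of at least 1 group. They are 29 of 11879 genes and unnamed transcripts tested. Pdia3, Xbp1, Ern1, Sdf2l1, Manf, Edem1, Sec61b, Sec61g, Ssr1 and Spcs2 had no such probe and were not analysed here.

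A secreted protein enters the ER through the Sec61 channel, loses its leader peptide to the signal peptidase, receives sugar chains from the oligosaccharyltransferase and is folded by chaperones and disulfide isomerases. When unfolded protein builds up, the sensors encoded by Ern1, Eif2ak3 and Atf6 start the unfolded protein response, in which the factors Xbp1, Atf4 and cleaved Atf6 raise the transcription of chaperones and degradation genes, and Ddit3 is induced when the stress lasts. The mammary gland uses this route heavily once its epithelium makes milk proteins.

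The RNA came from terminal end buds, the swollen tips from which mammary ducts lengthen before maturity, cut by laser from the abdominal glands of female inbred Sprague-Dawley rats. Each pup had received 1 subcutaneous injection of 0.05 ml sesame oil within 24 hours of birth, so that the oil itself was common to all groups. The oil held no diethylstilbestrol (DES, a synthetic estrogen), 1 µg or 100 µg of it, and rats weaned at 21 days were sampled when 35 or 49 days old. There were 6 groups of 2 animals and 1 array an animal, which makes 12 arrays, and p-values rest on the spread between such pairs. Levels are given as a probe's signal divided by the median signal of its array, and can be set side by side only within a gene. Differences are on the log2 scale with their standard error, and a gene was called where limma's p-value, adjusted over all genes tested by the Benjamini-Hochberg method, was below 0.05.

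Of the marker lists for cell types, luminal epithelium had 8 of 14 genes measured, with a summed level of 2253 to 3957 on the 12 arrays, and basal and myoepithelium had 7 of 10, at 381 to 519.4. Fibroblast and collagen genes (11 of 14), endothelial genes (5 of 9) and adipocyte genes (5 of 9) were measured on these arrays too. Of 14 plasma cell and B cell markers only Jchain was measured. In such bulk samples fewer cells of a type and less RNA per cell cannot be told apart. The 2 oil arrays at 49 days stood apart from the other 10: their medians were 16.4 and 15.3 against 23.6 to 38.95, detection began at 1.04 and 1.03 times the median against 0.214 to 0.368 times elsewhere, and 47.2% of probes were detected on both of them against 57.5% to 61.7% in the other groups. Comparisons of the listed ER genes that use these 2 arrays are therefore given last, under 3 scalings. Other genes are given there with array medians only.

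Many genes of the unfolded protein response carry an ER stress element (ERSE) near their start, where the factors Atf6 and Xbp1 are known to bind in mammals together with NF-Y. RefSeq promoters (GRCr8) from 250 bases before to 50 after the start were listed for 25 of the 29 measured genes. The ERSE, CCAAT and CCACG with any 9 bases between them on either strand, was in 0.0657% of 33469 rat promoters and in 6 of the 25, and the ERSE-II, ATTGG and CCACG with any 1 base between them on either strand, which overlaps no ERSE match here, was in 0.0508% of promoters and in 3 of the 25. The UPR element TGACGTGG, also searched on both strands (0.595% of promoters), was in Hyou1 alone, overlapping an ERSE-II, and the Atf4 type motif TGATGNAAT (1.09%) was in none. The 250 bases upstream of the 4 genes that differed between the DES doses at 49 days are printed first, with the fixed letters of each ERSE or ERSE-II in capitals.
Hspa5 (chr3:38452766-38453015, + strand): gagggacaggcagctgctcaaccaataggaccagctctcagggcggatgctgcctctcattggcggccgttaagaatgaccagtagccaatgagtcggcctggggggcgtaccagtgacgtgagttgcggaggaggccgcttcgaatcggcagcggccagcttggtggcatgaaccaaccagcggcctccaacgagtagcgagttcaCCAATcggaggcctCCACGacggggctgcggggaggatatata
Hyou1 (chr8:53602632-53602881, + strand): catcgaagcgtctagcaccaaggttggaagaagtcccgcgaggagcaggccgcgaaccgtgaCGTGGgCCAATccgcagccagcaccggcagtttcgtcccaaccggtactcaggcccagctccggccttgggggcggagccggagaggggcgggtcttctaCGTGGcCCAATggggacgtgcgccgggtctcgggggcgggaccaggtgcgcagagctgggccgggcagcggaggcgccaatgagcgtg
Creld2 (chr7:121789134-121789383, + strand): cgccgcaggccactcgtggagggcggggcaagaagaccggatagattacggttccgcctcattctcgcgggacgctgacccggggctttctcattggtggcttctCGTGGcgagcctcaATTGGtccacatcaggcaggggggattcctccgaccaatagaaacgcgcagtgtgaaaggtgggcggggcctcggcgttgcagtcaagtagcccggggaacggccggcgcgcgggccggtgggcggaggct
Dnajc3 (chr15:102432417-102432666, + strand): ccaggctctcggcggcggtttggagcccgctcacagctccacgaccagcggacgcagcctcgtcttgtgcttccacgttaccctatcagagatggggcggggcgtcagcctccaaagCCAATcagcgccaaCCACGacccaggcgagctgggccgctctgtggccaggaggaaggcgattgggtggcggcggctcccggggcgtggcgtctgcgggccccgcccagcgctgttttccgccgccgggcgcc
Of the other measured genes with either motif, 4 are shown by the match and 8 bases on each side, in the same notation, since their values are read against the first 4 below.
Hsp90b1 ERSE (chr7:23012443-23012477, - strand): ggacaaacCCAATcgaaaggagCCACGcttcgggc
Hsp90b1 ERSE (chr7:23012339-23012373, - strand): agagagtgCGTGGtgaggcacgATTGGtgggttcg
Calr ERSE (chr19:40213127-40213161, + strand): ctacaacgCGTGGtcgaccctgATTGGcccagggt
Dnajb11 ERSE-II (chr11:91672792-91672818, - strand): aggcggcgATTGGcCCACGcctggctg
Herpud1 ERSE-II (chr19:10614813-10614839, - strand): gggcgctgATTGGgCCACGttgggcac
A match is a description of these letters and not a binding site. Hspa5 encodes BiP, the main Hsp70 chaperone of the ER, Hyou1 its large relative and nucleotide exchange factor, Creld2 an ER stress-inducible protein with disulfide isomerase activity, and Dnajc3 the co-chaperone P58IPK, which binds unfolded proteins and also restrains Perk, the product of Eif2ak3.

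**Figure D1:**
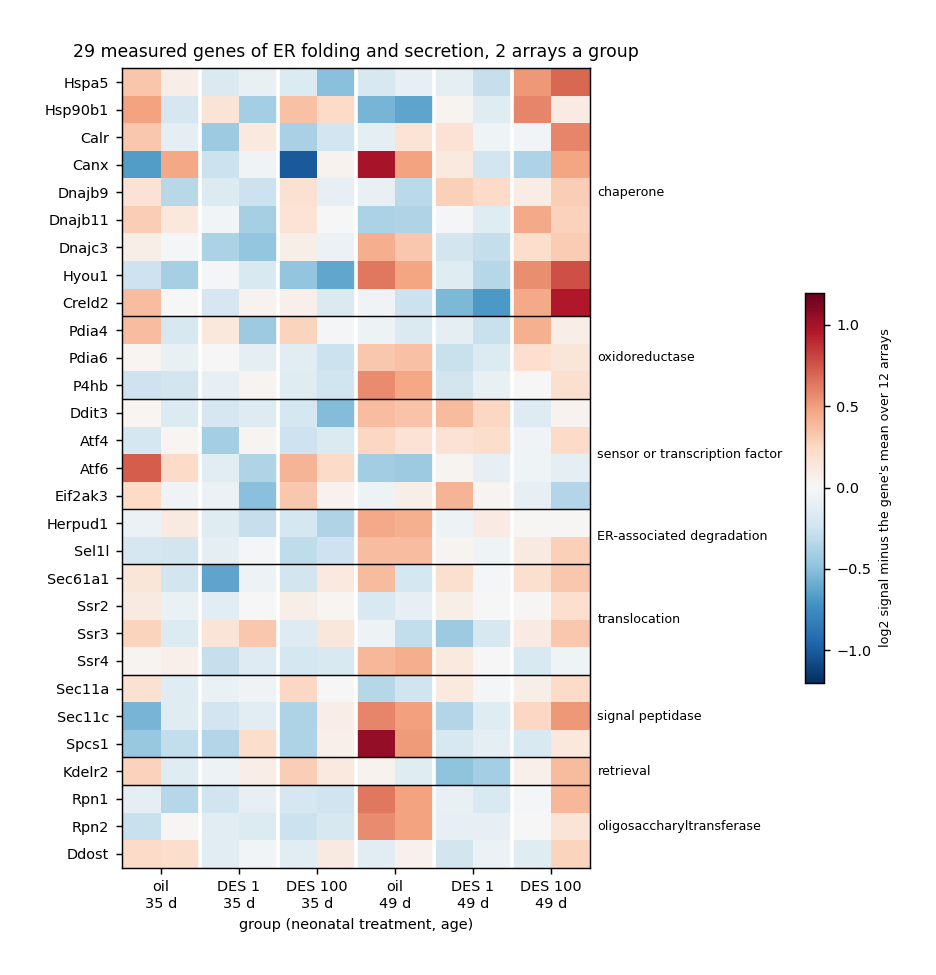
Heat map of the 29 measured genes, in rows by role, on 12 arrays, in columns by group. Colour is the log2 signal over the array median minus the gene's mean over the 12 arrays; several chaperones are high on the DES 100 µg arrays at 49 days, and Rpn1, Rpn2, P4hb, Sel1l and Herpud1 are high on the oil arrays at 49 days.

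At 49 days, 4 of the 9 measured chaperone and co-factor genes were higher in terminal end buds of rats given 100 µg DES than in those given 1 µg, and the other 5 did not pass. Of the 29 genes, 4 (13.8%) were called higher and 0 lower, where 3.62% of all genes tested were higher and 3.15% lower, or 6.77% in all. The list was chosen with earlier results of these data known, so such shares, here and below, are descriptive only. The 4 were Creld2, Hyou1, Hspa5 and Dnajc3. With 2 arrays a group, pairs often did not overlap: both high-dose arrays lay above both low-dose arrays for 15 of the 29 genes and below for 3. The share of all genes with such arrays was not counted, so these counts have no background to be read against. The median difference of the 29 was 0.21, against 0.02 for all genes, and 22 of 29 (75.9%) were above 0, against 52.7% of all genes.

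Hspa5 read 459.7 and 518 on the DES 100 µg arrays at 49 days and 296 and 265 on the DES 1 µg arrays. On the arrays at 35 days it read 404 and 339 after oil, 285 and 301 after 1 µg, and 285 and 226 after 100 µg. Both DES 100 µg arrays at 49 days were above each of the other 10 arrays, the 2 oil arrays at 49 days included, which read 280.5 and 299. The difference between the doses at 49 days was 0.80 ± 0.15, a 1.74-fold ratio (adjusted p = 0.0201 by limma).

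Creld2 read 16.8 and 23.8 after 100 µg and 8.43 and 7.61 after 1 µg at 49 days. The other 8 arrays lay between 10.3 and 15.9, so that the high dose held the 2 highest arrays of the study and the low dose the 2 lowest. The difference was 1.32 ± 0.21, a 2.50-fold ratio (adjusted p = 0.00935 by limma).

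Hyou1 read 117 and 136 after 100 µg and 72.0 and 62.8 after 1 µg at 49 days. The difference was 0.91 ± 0.14 (adjusted p = 0.00867 by limma), and the arrays of the doses did not overlap. The oil arrays at 49 days, at 124 and 110.5, overlapped those of the high dose. A second, dim probe for Hyou1 was called detected in both DES groups at 49 days. It read 0.70 and 1.11 after 100 µg and 0.83 and 0.68 after 1 µg, which overlapped. With the mean of both probes the difference was 0.57 and did not pass (adjusted p = 0.206 by limma, against 0.00117 to 0.318 over the 15 alternative fits).

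Dnajc3 read 134 and 144 after 100 µg and 99.6 and 95.5 after 1 µg, a difference of 0.51 ± 0.11 (adjusted p = 0.0299 by limma). At 35 days it read 122 and 111 after 100 µg, 89.1 and 84.4 after 1 µg, and 122 and 115 after oil. With array medians, all 4 DES 1 µg arrays were below the other 8 arrays, of which the oil arrays at 49 days, at 157 and 145, were highest. The place of those oil arrays depends on the scaling. Between the ages in the oil group Dnajc3 differed by 0.35 with array medians and by -0.07 after quantile normalization.

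Among the other chaperones, Dnajb11, a co-chaperone of BiP, differed by 0.45 and Hsp90b1, the ER Hsp90, by 0.40, and neither passed. Hsp90b1 read 274 and 195 after 100 µg and 186 and 165 after 1 µg, so the arrays did not overlap, but the high-dose pair was itself wide. Dnajb9, another BiP co-chaperone, read 3.31 and 3.81 against 3.77 and 3.64, which overlapped. The 9 chaperones had a median difference of 0.45.

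The retrieval receptor Kdelr2, which returns escaped chaperones to the ER, differed by 0.67 ± 0.17 (adjusted p = 0.0589) and the signal peptidase subunit Sec11c by 0.63 ± 0.20 (adjusted p = 0.0998), both short of the threshold. The 3 disulfide isomerases Pdia4, Pdia6 and P4hb differed by 0.25 to 0.45 and did not pass. The 3 oligosaccharyltransferase genes Rpn1, Rpn2 and Ddost, which make up the sugar-transferring complex with its catalytic subunits, differed by 0.18 to 0.33, and the 4 translocation genes by -0.18 to 0.52.

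The 4 sensor and factor genes lay the other way, with a median of -0.23 and none called. Ddit3, a factor of the late stress response, read 17.2 and 19.8 after 100 µg and 24.9 and 22.8 after 1 µg, a difference of -0.37 ± 0.14 (adjusted p = 0.16). Atf4, the factor made when Perk is active, read 209 and 253 against 244 and 249, which overlapped. Eif2ak3, encoding Perk, differed by -0.45 and Atf6 by -0.05. Herpud1, a degradation gene that the unfolded protein response induces, read 30.6 on both high-dose arrays and 29.1 and 32.5 on the low-dose arrays, which overlapped.

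**Figure D2:**
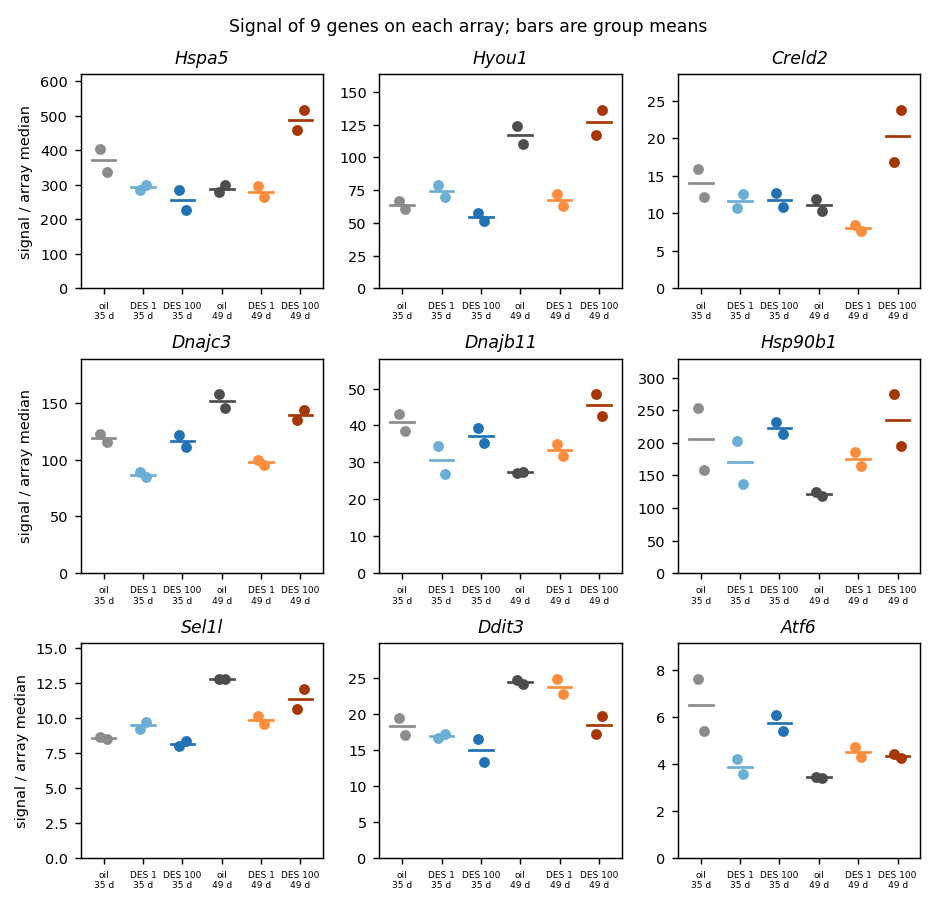
Signal over array median of 9 genes on each of the 12 arrays, by group, with the group mean as a bar. Hspa5 and Creld2 are highest on both DES 100 µg arrays at 49 days, at 459.7 and 518 and at 16.8 and 23.8, while Ddit3 is not raised there.

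All 4 called genes hold an ERSE or ERSE-II in the sequences above. Of the 9 measured genes with either motif, 4 were called and their median difference was 0.45. Of the 16 with a listed promoter and neither motif, 0 were called and the median was 0.15. Among the genes with a motif that were not called were Hsp90b1, Dnajb11, Calr and Herpud1, the last at -0.01. No test was made of this split. The genes with a motif are the measured chaperones and co-factors, except Dnajb9, together with Herpud1. Motif and role can therefore not be told apart here.

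The 4 calls rest on few arrays. Leaving out the second DES 100 µg array or the second DES 1 µg array left 0 of the 29 called by limma, with Creld2 at 1.07 and 1.25 and Hyou1 at 0.81 in both cases. Leaving out the first array of either dose ended some of the 4 calls. Each of these fits called fewer of all genes too. Of the 5 scan days of the 10 arrays with scanner files, the second arrays of both doses shared 1. Between those 2 arrays Creld2 differed by 1.64, Hyou1 by 1.12, Hspa5 by 0.97 and Dnajc3 by 0.59. The median gene differed by 0.06 and the median of the 29 was 0.34. For each of the 4 genes these were the higher array of the high dose and the lower array of the low dose. No other pairing gave a larger difference, and they are the same 2 arrays left out first above.

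At 35 days limma called 0 of 29 genes between the doses, against 8% of all genes (4.12% higher and 3.87% lower), and 4 had an unadjusted p below 0.05. Dnajc3 was the nearest, at 0.42 ± 0.11 (adjusted p = 0.0523), and Hyou1 lay at -0.44 ± 0.14 (adjusted p = 0.0953), the opposite sign to 49 days. The arrays of the doses did not overlap for either gene. Both passed with 75th percentile scaling, at 0.37 and -0.50 (adjusted p = 0.0393 and 0.0231), and after quantile normalization, at 0.41 and -0.48 (adjusted p = 0.0305 and 0.0238). The median of the 29 was 0.02 and that of all genes 0.05. In the test of the change itself, the dose difference of Hyou1 moved by 1.36 ± 0.20 from 35 to 49 days (adjusted p = 0.0134 by limma), which was 1 of 29 genes called against 2.43% of all genes (1.05% upward and 1.38% downward). With the mean of both Hyou1 probes it was not called. The changes of Creld2, 1.30 ± 0.29, and Hspa5, 1.00 ± 0.21, did not pass (adjusted p = 0.0617 and 0.0528). Without the second array of DES 100 µg at either age, or of DES 1 µg at 49 days, the change of Hyou1 was 1.25 to 1.28 and was not called.

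**Figure D3:**
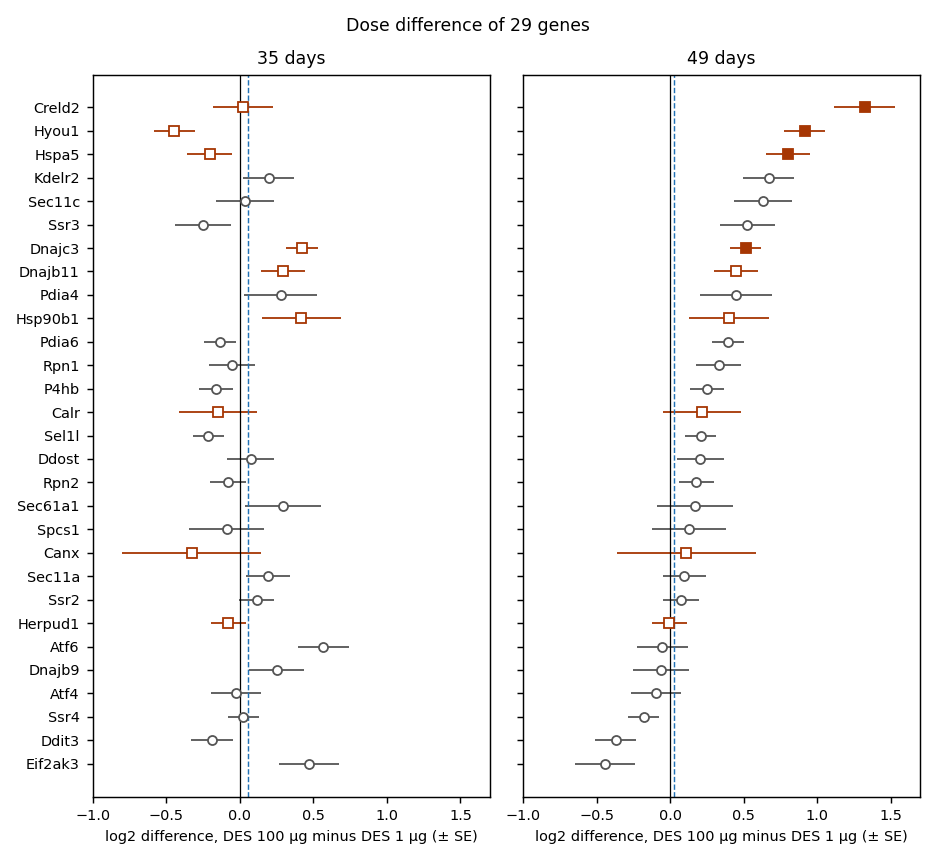
Log2 difference between DES 100 µg and DES 1 µg, with standard error, for 29 genes at 35 days (left) and 49 days (right). Filled marks passed the test, squares are genes with an ERSE or ERSE-II within the listed promoter, and the dashed line is the median of all genes; Creld2, Hyou1, Hspa5 and Dnajc3 are filled at 49 days and none is filled at 35 days.

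Within the DES 100 µg group, 3 of 29 genes were higher at 49 than at 35 days and 0 lower, against 4.39% and 1.51% of all genes (5.9% in all). Hyou1 went from 57.6 and 51.8 to 117 and 136, a rise of 1.21 ± 0.14 (adjusted p = 0.00255 by limma). Hspa5 rose by 0.94 ± 0.15 (adjusted p = 0.0116), from the array values above. Sel1l, the scaffold of the ER ubiquitin ligase Hrd1, went from 7.99 and 8.30 to 10.6 and 12.02, a rise of 0.47 ± 0.10 (adjusted p = 0.0373). The arrays of the ages did not overlap for any of the 3. Of the 29, 27 (93.1%) were above 0, against 56.5% of all genes, and the median was 0.29 against 0.06. Without the second array at 35 days, or the second at 49 days, only Hyou1 was called, and with 75th percentile or quantile scaling Sel1l was not.

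Within the DES 1 µg group limma called 0 of 29 genes between the ages, against 4.12% of all genes (3.32% higher and 0.8% lower), with 7 at an unadjusted p below 0.05. The nearest was Ddit3, from 16.7 and 17.2 at 35 days to 24.9 and 22.8 at 49 days, a difference of 0.49 ± 0.14 (adjusted p = 0.0964). The factor genes and Dnajb9 lay above 0 here, at 0.22 to 0.51, and Creld2 lay at -0.53 and Kdelr2 at -0.46, with none called. Atf4 read 162 and 221 at 35 days and 244 and 249 at 49 days, which did not overlap.

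Against oil at 35 days, 2 of 29 genes were lower after 1 µg DES and 0 higher, where 4.18% of all genes were lower and 3.14% higher (7.32% in all). Atf6, a membrane-bound sensor that becomes a transcription factor when cleaved, read 4.18 and 3.57 after 1 µg and 7.60 and 5.37 after oil, a fall of 0.72 ± 0.17 on the log2 scale (adjusted p = 0.0423 by limma). Its probe was named from a description that calls the transcript partial. Dnajc3 fell by 0.45 ± 0.11 (adjusted p = 0.0429), from 122 and 115 to 89.1 and 84.4. The arrays of the groups did not overlap for either gene. Leaving out the first oil array, or either DES array, ended both calls, and without the second oil array Dnajc3 was not called. Markers of other cells moved in the same comparison: endothelial genes had 4 of 5 higher and 0 lower, adipocyte genes 4 of 5, fibroblast genes 3 of 11, and luminal genes 1 higher and 2 lower of 8. The summed endothelial level was 85.2 and 89.0 after 1 µg and 46.4 and 50.2 after oil, and the summed luminal level 2253 and 2432 against 3337 and 3036. Jchain fell by 1.22 ± 0.18 on the log2 scale (adjusted p = 0.00639), from 6.67 and 5.88 to 3.21 and 2.26. The part of these shifts in the values of Atf6 and Dnajc3 was not tested.

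After 100 µg, limma called 0 of 29 against oil at 35 days, where 1.28% of all genes were called (0.404% higher and 0.875% lower), and 2 had an unadjusted p below 0.05. Hspa5 lay at -0.54 ± 0.15 (adjusted p = 0.184), with both DES arrays below both oil arrays, and Herpud1 at -0.30 ± 0.12. Herpud1 read 28.8 and 32.7 after oil, 27.5 and 25.1 after 1 µg and 26.2 and 23.6 after 100 µg. Ssr4, a subunit of the translocon-associated complex, read 58.2 and 59.5 after oil, 47.0 and 51.0 after 1 µg, and 49.3 and 50.3 after 100 µg. Neither gene's DES arrays overlapped the oil arrays, and neither passed the test. Both 100 µg arrays lay below both oil arrays for 9 of the 29 genes and above for 0, with none called. How many of all genes lay so was not counted, and these counts are not read as a result. Jchain was lower after 100 µg too, by -1.60 ± 0.18 (adjusted p = 0.00624).

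The 2 oil arrays at 49 days enter the comparisons that follow. Scaled by array medians, all genes together lay 0.16 higher at 49 than at 35 days in the oil group, against 0.01 with 75th percentile scaling and -0.01 after quantile normalization, so that calls depend on the scaling. Of the 29 genes, 12 were higher and 2 lower at 49 days with array medians, where 27.7% and 13.9% of all genes were (41.6% in all). The split was 7 and 5 with the 75th percentile, where 2310 and 2309 of all 11879 genes were called. After quantile normalization it was 5 and 7, where 2068 and 2221 of all genes were. Calls shared by all 3 scalings were not counted over all genes. Called higher under all 3 scalings were 5 genes, Spcs1, Hyou1, Rpn1, P4hb and Sel1l, and called lower were 2, Atf6 and Dnajb11. With the mean of its 2 probes Hyou1 differed by 0.43 and was not called (adjusted p = 0.18 by limma). Its second probe was not called detected on the oil arrays at 49 days.

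Spcs1, a signal peptidase subunit, read 95.8 and 107 at 35 days and 273 and 187 at 49 days. Its difference was 1.16 ± 0.25 (adjusted p = 0.00876 by limma), and 0.75 after quantile normalization. A second, dimmer Spcs1 probe, called detected in every group, lay closer together, at 60.7 and 73.8 at 35 days and 97.0 and 109.8 at 49 days. Rpn1, a subunit that holds the oligosaccharyltransferase at the translocon, read 613 and 527 at 35 days and 1030.5 and 928 at 49 days, a difference of 0.78 ± 0.16 (adjusted p = 0.00608). P4hb, the founding disulfide isomerase, read 184 and 187 against 322 and 301, a difference of 0.75 ± 0.12 (adjusted p = 0.00272). The arrays of the ages did not overlap for these 3 genes, nor for Sel1l, which read 8.59 and 8.47 against 12.7 on both arrays at 49 days. With array medians Sec11c (0.89), Rpn2 (0.65) and Herpud1 (0.43) were also higher, and the remaining 4 lay between 0.35 and 0.42. Among these was Ddit3, which read 19.5 and 17.1 at 35 days and 24.7 and 24.2 at 49 days. None of these 7 was called higher under all 3 scalings.

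Atf6 went the other way in the oil group, from 7.60 and 5.37 at 35 days to 3.45 and 3.39 at 49 days, a fall of 0.90 ± 0.17 on the log2 scale (adjusted p = 0.00525 by limma). Dnajb11 fell by 0.58 ± 0.15 (adjusted p = 0.0164), from 43.2 and 38.4 to 27.1 and 27.5. Hsp90b1 read 254 and 159 at 35 days and 124 and 118 at 49 days, a difference of -0.73 that passed with 75th percentile scaling (-0.88) and after quantile normalization (-1.13) but not with array medians. Hspa5 likewise passed under those scalings, at -0.50 and -0.77, and not with array medians, at -0.35. Sec61a1, the channel subunit, was not called detected by the authors on the oil arrays at 49 days, and no size is given for it there.

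With array medians, the only scaling used for them, markers of other cells and cargo genes moved with age in the oil group too. Luminal genes had 3 of 8 higher and 1 lower, among them Muc1 (1.45) and Cdh1 (-1.55), and adipocyte genes had 2 higher and 2 lower of 5. Fibroblast genes had 3 higher and 2 lower of 11. Jchain fell by 1.06 ± 0.18 on the log2 scale (adjusted p = 0.00376), and 6 of 9 milk proteins were higher and 0 lower, Csn3 by 2.68 and Csn1s2a by 2.95 among them. The part of these shifts in the ER genes was not tested.

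**Figure D4:**
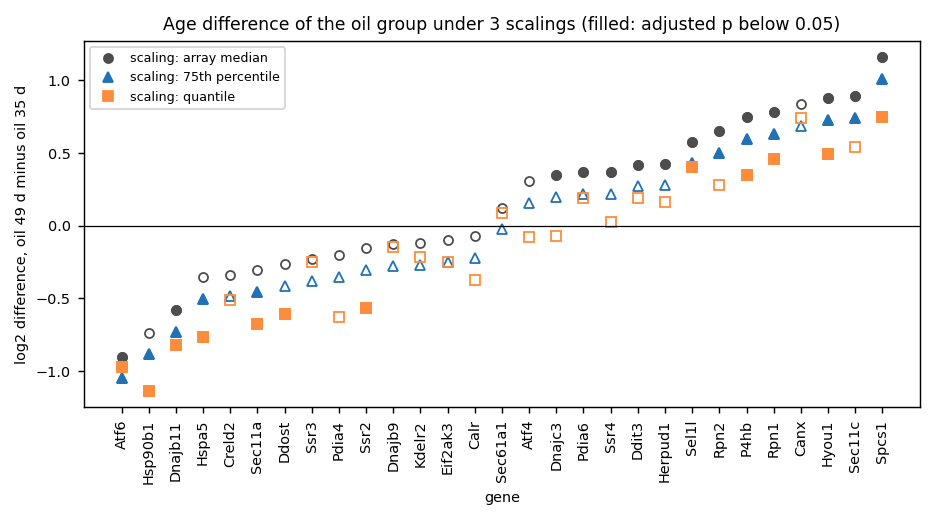
Log2 difference between 49 and 35 days in the oil group for 29 genes under 3 scalings of the arrays, with filled marks where the adjusted p was below 0.05. The points of most genes drop from array-median to 75th percentile to quantile scaling; Spcs1, Hyou1, Rpn1, P4hb and Sel1l stay filled above 0 and Atf6 and Dnajb11 below 0 in all 3.

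Against these oil arrays at 49 days, 0 of 29 genes were higher and 11 lower after 1 µg DES, where 12.7% and 19.1% of all genes were (31.7% in all). With the 75th percentile 3 were higher and 8 lower, where 1976 and 1748 of all 11879 genes were. After quantile normalization it was 3 and 5, where 1878 and 1523 of all genes were. Called lower under all 3 scalings were 5: Dnajc3 (-0.63 ± 0.11), Hyou1 (-0.80 ± 0.14), P4hb (-0.67 ± 0.12), Pdia6 (-0.56 ± 0.11) and Rpn1 (-0.69 ± 0.16), in values scaled by array medians. With the mean of both Hyou1 probes the Hyou1 difference was -0.48 and was not called (adjusted p = 0.159 by limma). Of the other 6, Spcs1 (-0.94), Sec11c (-0.79) and Rpn2 (-0.62) differed most, and the last 3 lay between -0.42 and -0.36.

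Pdia6, a disulfide isomerase that works with BiP, read 8.14 and 8.74 after 1 µg and 12.3 and 12.5 after oil. Rpn2, of the same complex as Rpn1, read 362 on both DES arrays and 573 and 540.5 on the oil arrays. Sec11c read 47.5 and 54.7 against 90.9 and 85.0. In each of these the groups did not overlap. Several of the 11 genes lost their calls whenever 1 of the 4 arrays was left out, and fewer of all genes were called in these fits as well.

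After 100 µg, 4 of 29 genes were higher than oil at 49 days and 5 lower, where 10.9% and 14.2% of all genes were (25.1% in all). With the 75th percentile the split was 5 and 1, where 1702 and 1232 of all 11879 genes were called. After quantile normalization it was 7 and 1, where 1547 and 1180 of all genes were. The same 4 genes, Hsp90b1 (0.94 ± 0.27), Creld2 (0.86 ± 0.21), Hspa5 (0.75 ± 0.15) and Dnajb11 (0.74 ± 0.15), were higher under all 3 scalings, and all of them are chaperones or co-factors with an ERSE or ERSE-II. Dnajb11 read 48.4 and 42.7 after 100 µg, 34.9 and 31.8 after 1 µg and 27.1 and 27.5 after oil at 49 days, with no overlap between any 2 of the groups.

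Ssr4 was lower under all 3 scalings, with means of 52.5 ± 3.49 after 100 µg and 76.1 ± 1.5 after oil (SD, n = 2) and no overlap between the arrays, a fall of 0.54 ± 0.11 on the log2 scale (adjusted p = 0.0102 by limma). Spcs1 (-0.81), Rpn2 (-0.44), Herpud1 (-0.43) and P4hb (-0.42) were lower with array medians but not under all 3 scalings. With the mean of both Spcs1 probes the Spcs1 difference was -0.62 and was not called (adjusted p = 0.0527 by limma). With array medians Herpud1 read 41.6 and 40.8 on the oil arrays at 49 days, above each of the other 10 arrays. With any 1 of these arrays left out, fewer of the 29 were called, and fewer of all genes as well. Without the first oil array the 4 higher genes lost their calls, at 0.71 to 0.97, and so did Ssr4, at -0.56. Cell type markers moved against these oil arrays as well: after 1 µg fibroblast genes had 8 of 11 higher and 0 lower, adipocyte genes 4 of 5 and 0, endothelial genes 4 of 5 and 1, mast cell genes 3 of 5 and 0, and luminal genes 1 of 8 and 4. After 100 µg adipocyte genes had 3 of 5 higher and 0 lower, fibroblast genes 2 of 11 and 0, T cell genes 2 of 4 and 0, and luminal genes 1 of 8 and 2. These marker counts are with array medians only. The part of these cells in the ER genes was not tested. The authors deposited lists of probes past 2-fold against oil, by their titles. They hold 406 and 121 probes for 1 and 100 µg at 35 days and 970 and 1023 at 49 days. No gene of the 29 appears in them. With array medians the 29 differed from oil by -0.94 to 0.94 on the log2 scale, short of 2-fold. Their absence therefore adds no separate evidence.

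The dose effects were also tested for a change with age. The difference between 100 µg and oil moved up from 35 to 49 days for Hspa5, by 1.30 ± 0.21 (adjusted p = 0.0134 by limma), and Dnajb11, by 0.87 ± 0.21 (adjusted p = 0.0409). They are 2 of 29 genes, all upward, against 4.62% of all genes upward and 5.23% downward (9.85% in all), and both kept the call under the 3 scalings. Creld2 moved by 1.10 ± 0.29 and missed the threshold (adjusted p = 0.0507). For 1 µg the change was upward in 2 genes, Atf6 and Dnajb11, and downward in 8, against 9.42% and 11.3% of all genes (20.7% in all). Atf6, Dnajb11, Hyou1 and P4hb kept these calls under the 3 scalings. Each of these tests uses the oil arrays of both ages. Leaving out 1 array at a time left 1 or 2 genes called for 100 µg and 0 to 6 for 1 µg, the 0 being without the first oil array at 49 days. For 100 µg, Hspa5 kept its call in all 8 of these fits and Dnajb11 lost it in all 8, at 0.78 to 0.96 (adjusted p = 0.0553 to 0.118).

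The cargo of the route in this tissue was read from a list of 13 secreted milk proteins, of which 9 were measured. At 49 days 5 were higher after 100 µg than after 1 µg and 0 lower: the caseins Csn2 (1.71 ± 0.21) and Csn1s2a (1.57 ± 0.25), whey acidic protein Wap (1.90 ± 0.24), lactalbumin Lalba (0.96 ± 0.15) and the fat globule protein Mfge8 (0.72 ± 0.15). Csn2 read 6.69 and 5.69 after 100 µg and 1.75 and 2.04 after 1 µg. The arrays of the doses did not overlap, and the 5 cargo genes were higher in the same comparison as the 4 chaperone genes. A link between cargo and ER genes was not tested, at this age or at 35 days. Glycam1, a milk mucin, lay the other way, at 0.699 and 0.561 after 100 µg and 5.21 and 5.10 after 1 µg, with no overlap, and did not pass (-3.04 ± 0.91, adjusted p = 0.0865 by limma). That standard error rests on the spread in all 6 groups. Among them are the wide pairs near the floor at 35 days, 0.073 and 0.010 after oil and 0.438 and 0.090 after 100 µg. In the oil group, 6 of 9 milk proteins were higher at 49 than at 35 days with array medians. There Dnajb11 was lower under all 3 scalings and Hspa5 and Hsp90b1 under 2 of them.

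At 35 days milk proteins were lower after 100 µg than after 1 µg, with 5 of 9 called lower and 0 higher. After 1 µg, Csn2 read 31.3 and 25.4 against 1.28 and 1.09 after oil and 2.34 and 1.56 after 100 µg, and Csn1s2a read 28.2 and 37.8 against 0.746 and 0.639 after oil. Against oil at that age 5 of 9 milk proteins were higher, Csn1s2a by 5.56 ± 0.25, Csn2 by 4.58 ± 0.21 and Csn1s1 by 1.34 ± 0.12 among them. None of the 29 ER genes was higher, Hspa5 lay at -0.34 and the median of the 29 at -0.11. Both sets of DES arrays at 35 days are set against the same oil arrays. Glycam1, also called, was at or near the floor on the oil arrays and no size is given for it.

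**Figure D5:**
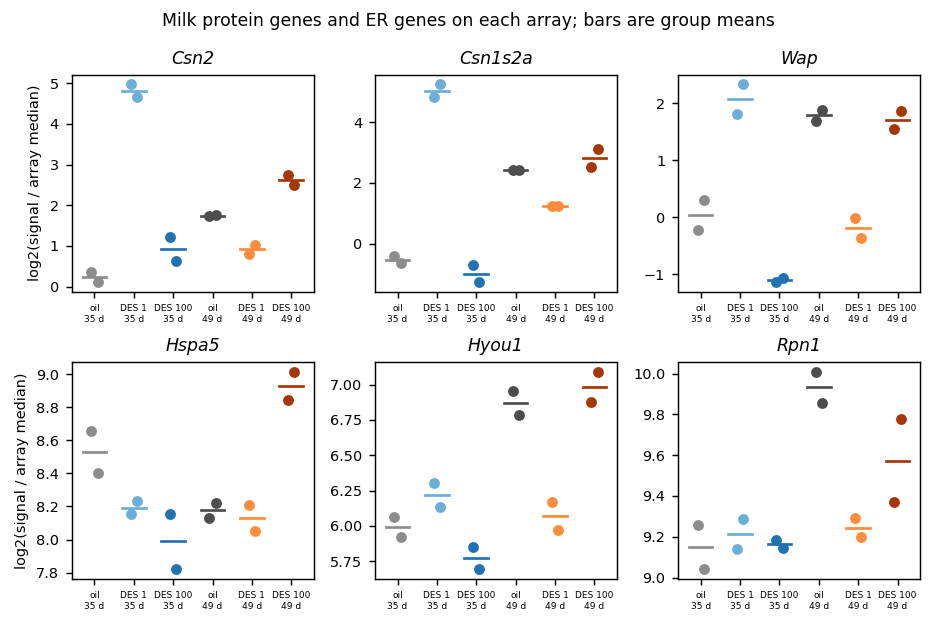
Log2 signal over array median for milk protein genes (top) and ER genes (bottom) on each array by group, with group means as bars and a separate scale in each panel. Csn2 and Csn1s2a are highest on both DES 1 µg arrays at 35 days, where Hspa5, Hyou1 and Rpn1 are not, and Hspa5 is highest on both DES 100 µg arrays at 49 days.

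Other genes of the secretory route were read between the doses at 49 days from lists outside the 39. Of 15 measured folding enzymes and chaperones, 0 were called and the median was 0.07. Of 13 genes of the Perk and Atf4 branch 0 were called, as were 0 of 7 further sensors and proteases, 0 of 8 degradation genes and 0 of 10 translocation genes. N-glycosylation had 1 of 9 higher, Alg5 (0.93), a glucosyltransferase of the lipid-linked sugar. ER to Golgi transport had 2 of 21 higher, the coat subunits Copz1 (0.94) and Sec23b (0.56), with a median of 0.29. Cytosolic chaperones, of another compartment, had 1 of 14 higher, Hsph1 (0.84), with a median of 0.33. The medians of these last 2 lists were above the 0.21 of the 29 genes.

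Between the ages in the DES 100 µg group, the Perk and Atf4 list had 2 of 13 higher, Trib3 (0.98), a pseudokinase induced by Atf4 and Ddit3, and Phgdh (0.42), of serine synthesis. Trib3 read 1.11 and 1.18 at 35 days and 1.85 and 2.75 at 49 days. Hsph1 rose there by 0.92. At 35 days the immediate early and stress factor Atf3 read 5.55 and 4.70 after 1 µg, 14.9 and 14.8 after oil, and 20.2 and 19.4 after 100 µg, so the low dose stood below both, by 1.54 against oil and by 1.95 against 100 µg. At 49 days it read 17.6 and 16.9 after 1 µg, 3.70 and 4.19 after oil, and 20.1 and 19.96 after 100 µg. There the low dose was above oil, by 2.13 ± 0.12 (adjusted p = 0.000101 by limma). Atf3 rose with age after 1 µg by 1.76 and fell after oil by 1.92. The 2 differences that use the oil arrays at 49 days are with array medians only.

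Markers of other cell types moved in the same comparisons. Between the doses at 49 days, endothelial genes had 0 of 5 higher and 3 lower, adipocyte genes 0 and 3 of 5, mast cell genes 0 and 2 of 5 and fibroblast genes 0 and 1 of 11. Luminal genes had 2 of 8 higher and 1 lower. The summed fibroblast level was 1840 and 2026 after 100 µg and 2941 and 2463 after 1 µg, and the summed luminal level was 3524 and 3687 against 3058 and 3063. Jchain, the plasma cell gene measured, read 4.78 and 3.83 against 3.85 and 3.64, with a difference of 0.19 that did not pass. The part of these shifts in the ER genes was not tested.

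Within the DES 100 µg group, between the ages, fibroblast genes had 4 of 11 higher and T cell genes 3 of 4, and Jchain rose by 1.06 ± 0.18 (adjusted p = 0.0146), from 2.14 and 1.98 to 4.78 and 3.83. Plasma cells and fibroblasts are themselves secretory, and their part in the rise of Hspa5, Hyou1 and Sel1l was not tested.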

How the data were processed

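Terminal end bud RNA of 12 rats was hybridised to 1-colour Agilent arrays, 2 arrays in each of 6 groups. The authors' deposited table holds each probe's intensity, the processed signal of Agilent Feature Extraction 9.1.3.1 per the file headers, which equals the deposited scanner files within 0.497% on the 10 arrays that have one here. The sources used here name no genome build for the probes. The authors' deposited lists of differing probes give a linear fold and served only for a lookup.

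Each intensity was divided by its array's median over 20500 probes, floored at 0.01 and taken to log2. Probes that the authors' flags call present or marginal on both arrays of some group were kept (13266), and the brightest probe stood for a gene, which left 11879 genes or unnamed accessions, 5622 of them with a symbol. Probes were named through RefSeq by accession (6547), symbol (2464) or older symbol (713), and 10776 stayed unnamed; Atf6, Sec11c and Spcs1 were named from the probe description. Group means over all 12 arrays were fitted with limma 3.58.1 in R 4.3.3, leaving 6 residual degrees of freedom, with p-values adjusted over all genes by the Benjamini-Hochberg method at 0.05. The procedure was tested on simulated data.

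The genes and lists were chosen with earlier results of these data known. The text names the genes that passed, up to 8 in each direction by size, gives arrays for a fixed set whatever their values, and names up to 4 genes of a pathway or marker list that passed. The labels do not pair the animals, and the number of arrays limits precision. Alternatives were 75th percentile and quantile scaling, another floor (0.2), filter, probe rule and background, fits on the compared groups alone, with blocks or a signal covariate, and leaving out each array. The scanner files hold no mean signal, so normexp (offset 50) used the median signal. The sequence of 1 motif match is not reported here.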

Additional observations from a re-analysis of the deposited data

Results flagged for a closer look

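For 13 results the effect of DES, or of its dose, differed between 35 and 49 days by a test of that difference itself in limma. Against oil, the effect of 1 µg DES moved down for Spcs1 by -1.24, Hyou1 by -1.02, Sec11c by -0.95, P4hb by -0.87, Rpn1 by -0.75, Rpn2 by -0.60, Sel1l by -0.53 and Pdia6 by -0.52 on the log2 scale. It moved up for Atf6 by 1.12 and for Dnajb11 by 0.72. The effect of 100 µg against oil moved up for Hspa5 by 1.30 and for Dnajb11 by 0.87. These 12 use the oil arrays at 49 days, which stood apart from the other 10 arrays. The difference between 100 and 1 µg moved up for Hyou1 by 1.36, which uses no oil array.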

How the results depend on the processing

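Counts here are of the 29 genes called, and the count over all genes moved with many of these settings. With scan day as a block 0 of all 11879 genes were called in every comparison fitted. For 100 µg against oil at 49 days 2985 of all genes were called. That count was 1346 with the compared arrays alone and 496 with array signal as a covariate. Most fits with 1 array left out also called fewer of all genes. For 1 µg DES against oil at 35 days (2 called) the count was 1 with no filter on dim probes, and 0 when only the compared arrays were fitted or scan day was a block. At 49 days (11) it was 6 with array signal as a covariate. For 100 µg against oil at 49 days (9) it was 2 with the compared arrays alone and 0 with the covariate. Between the doses at 35 days (0) it was 2 with 75th percentile scaling, quantile normalization, normexp or the replicate block, and 1 with genes detected on all arrays or with no filter. Between the doses at 49 days (4), and between the ages after 100 µg (3), it was 0 with the compared arrays alone or scan day as a block. Between the ages it was 9 with the compared arrays alone and 1 with the covariate in the oil group (14), and 1 with the covariate after 1 µg (0). For the change of the 1 µg effect (10) it was 6 after quantile normalization, 5 with no filter or the compared arrays alone and 3 with the covariate. For that of the 100 µg effect (2) it was 4 after quantile normalization and 1 with no filter or the covariate. For that of the dose difference (1) it was 3 with either scaling, genes detected on all arrays or the floor of 0.2, 2 with normexp, 5 with the covariate, and 0 with the mean of probes, the compared arrays alone or scan day. Leaving out 1 array gave 0 to 1, 4 to 7 and 0 to 7 for 1 µg at 35 and 49 days and 100 µg at 49 days against oil, 0 to 3 between the doses at 49 days, 6 to 11 and 1 to 4 between the ages after oil and 100 µg, and 0 to 6, 1 to 2 and 0 to 2 for the 3 changes, with 0 throughout for the others. Hsp90b1 turned to -0.0096 for 100 µg against oil at 49 days with the covariate, and Dnajc3 to -0.0704 between the ages in the oil group after quantile normalization. The cause was not tested. Of single-gene values, 499 kept direction and call, 299 lost the call and 2 turned. Over all genes, the dose difference at 49 days called 804, against 103 with the compared arrays alone, 1800 with the covariate and 255 to 523 with 1 array left out.

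The labels do not say whether replicate numbers pair the samples. Deviations of same-numbered arrays correlated at -0.12 to 0.43 between groups, which does not settle whether they share a block. With the replicate block 5 genes were called between the doses at 49 days (1051 of all genes) and 2 at 35 days. Fits with scan day left 1 residual degree of freedom, and they and normexp were not run for comparisons with the oil arrays at 49 days, whose scanner files were not used here. Signals near background limit Sec61a1 and the second Hyou1 probe, and the high lower limit of detection on the oil arrays at 49 days limits dim genes there.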
